A study of Mus musculus with 8 samples.

Results

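Fibroblast and tendon markers were followed by the deposited symbols of 10 genes (Scx, Tnmd, Mkx, Thbs4, Dpt, Clec3b, Pdgfra, Cilp, Fbln1 and Tppp3), and all 10 were found among the 17068 genes of the table. RNA-seq had been done on osteoblastic cells (OBCs), which make bone matrix, after a sort from collagenase-digested long bones. All donors were female C57BL/6J mice, about 10 weeks of age. The leukemic group held 4 libraries of OBCs from mice with B-cell acute lymphoblastic leukemia (B-ALL) that carried the BCR-ABL fusion. The control group held 4 libraries of OBCs from healthy mice of the same strain, sex and age. The genes were selected on their FPKM in these same libraries, with the leukemic against control difference and the low level in control library 3 in view. Their differences between the groups and their values in that library are therefore given as a description, without a test.

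Tendons and ligaments join muscle to bone and bone to bone. Their cells express the transcription factors Scleraxis (Scx) and Mohawk (Mkx), the membrane protein Tenomodulin (Tnmd) and matrix proteins that bind and space collagen fibrils. Fibroblasts of the periosteum, joint capsule and other connective tissue share part of this program with them, and the receptor Pdgfra marks many mesenchymal cells. Some of these cells lie against bone, and a collagenase digest of a whole long bone can release such cells. Whether any of them passed the later sort for OBCs was not tested.

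The values are FPKM, in which the fragments of a gene are divided by transcript length and by library total, so that levels can be compared between genes. Read depth is unknown, because FPKM keeps no counts. A gene entered the fit if 4 or more of the 8 libraries held it at 1 FPKM or above. This held for 11214 genes, among them 9 of the 10 markers, and Clec3b was left out. The libraries were sorted as OBCs, and the sums of 12 osteoblast genes fit that label, at 47384 to 83033 FPKM in leukemic and 46715 to 92012 FPKM in control libraries. The sums of 8 cartilage genes were also high, at 2736 to 14681 FPKM in leukemic and 6625 to 10367 FPKM in control libraries. The sums of 6 leukocyte genes were 3.92 to 11.2 FPKM in leukemic and 5.13 to 13.9 FPKM in control libraries. The labels do not say that the libraries came from separate mice, so the spread between them may be technical. Leukemic libraries 1 and 2 were richer in short transcripts, with a Spearman rho of -0.332 and -0.313 between a gene's deviation and transcript length, against 0.292 and 0.324 in leukemic library 4 and control library 4.

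Cilp, Thbs4, Tnmd, Dpt and Tppp3 were the markers furthest below the other controls in control library 3 among those fitted, and the RefSeq windows at the starts of the first 4 are shown for that reason. Tppp3 had no entry. Each window holds 250 bases before and 50 bases after the annotated start in GRCm38.p6, read 5′ to 3′ on the strand of the gene. Capitals mark CANNTG, the E-box that basic helix-loop-helix factors such as Scx can bind, which reads the same on both strands.
Cilp, chr9:65264930-65265229, plus strand: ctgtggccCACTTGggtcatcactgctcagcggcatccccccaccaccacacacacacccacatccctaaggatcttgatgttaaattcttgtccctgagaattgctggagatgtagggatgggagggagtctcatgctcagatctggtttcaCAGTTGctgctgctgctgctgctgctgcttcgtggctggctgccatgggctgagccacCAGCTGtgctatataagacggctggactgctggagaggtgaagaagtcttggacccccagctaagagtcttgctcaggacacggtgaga
Thbs4, chr13:92794769-92795068, minus strand: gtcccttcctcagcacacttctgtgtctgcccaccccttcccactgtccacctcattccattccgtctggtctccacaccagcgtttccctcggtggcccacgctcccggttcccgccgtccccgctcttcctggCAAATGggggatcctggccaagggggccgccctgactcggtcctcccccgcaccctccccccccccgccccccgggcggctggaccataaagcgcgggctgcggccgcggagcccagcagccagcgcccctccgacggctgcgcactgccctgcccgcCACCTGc
Dpt, chr1:164796413-164796712, plus strand: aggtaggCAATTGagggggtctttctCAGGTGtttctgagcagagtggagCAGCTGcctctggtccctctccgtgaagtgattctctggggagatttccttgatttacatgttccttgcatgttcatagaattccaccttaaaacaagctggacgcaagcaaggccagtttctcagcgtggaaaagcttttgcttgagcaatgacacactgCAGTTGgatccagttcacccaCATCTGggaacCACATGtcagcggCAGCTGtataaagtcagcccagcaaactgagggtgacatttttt
Tnmd, chrX:133850758-133851057, plus strand: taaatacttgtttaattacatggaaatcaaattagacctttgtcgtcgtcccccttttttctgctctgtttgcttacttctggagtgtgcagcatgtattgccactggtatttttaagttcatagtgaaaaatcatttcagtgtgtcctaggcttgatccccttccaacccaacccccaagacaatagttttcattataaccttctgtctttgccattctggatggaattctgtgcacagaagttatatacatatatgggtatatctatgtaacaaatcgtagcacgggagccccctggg
The Dpt window held 7 copies of CANNTG, the Cilp window 3, the Thbs4 window 2 and the Tnmd window 0. Of all 32851 windows of this length, 72.3% held at least 1 copy, 17.6% at least 3 and 0.18% at least 7. The letters alone do not show that a factor binds there. Windows were listed for 6 of the 10 markers. Scx, Mkx and Clec3b had no entry either.

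The 10 markers spanned a wide range of levels. By the median over 8 libraries the order was Cilp (1712 FPKM), Thbs4 (471 FPKM), Tnmd (222 FPKM), Tppp3 (108 FPKM), Pdgfra (27.0 FPKM), Dpt (22.9 FPKM), Fbln1 (19.6 FPKM), Mkx (13.4 FPKM), Scx (1.38 FPKM) and Clec3b (0.63 FPKM). The first 4 kept this order within each of the 8 libraries. Pdgfra, Dpt and Fbln1 overlapped, as Pdgfra exceeded Dpt in 5 libraries and Dpt exceeded Fbln1 in 4. Cilp stood above 99.3% of the genes of the table in every library. Thus Thbs4 and Tnmd, a matrix and a membrane gene of tendon, were abundant, as was Cilp, while the matrix genes Dpt and Fbln1 were lower. Scx, the factor most used to define tendon cells, was near the limit of the filter. Clec3b, a marker of connective tissue fibroblasts, was below it.

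**Figure D1:**
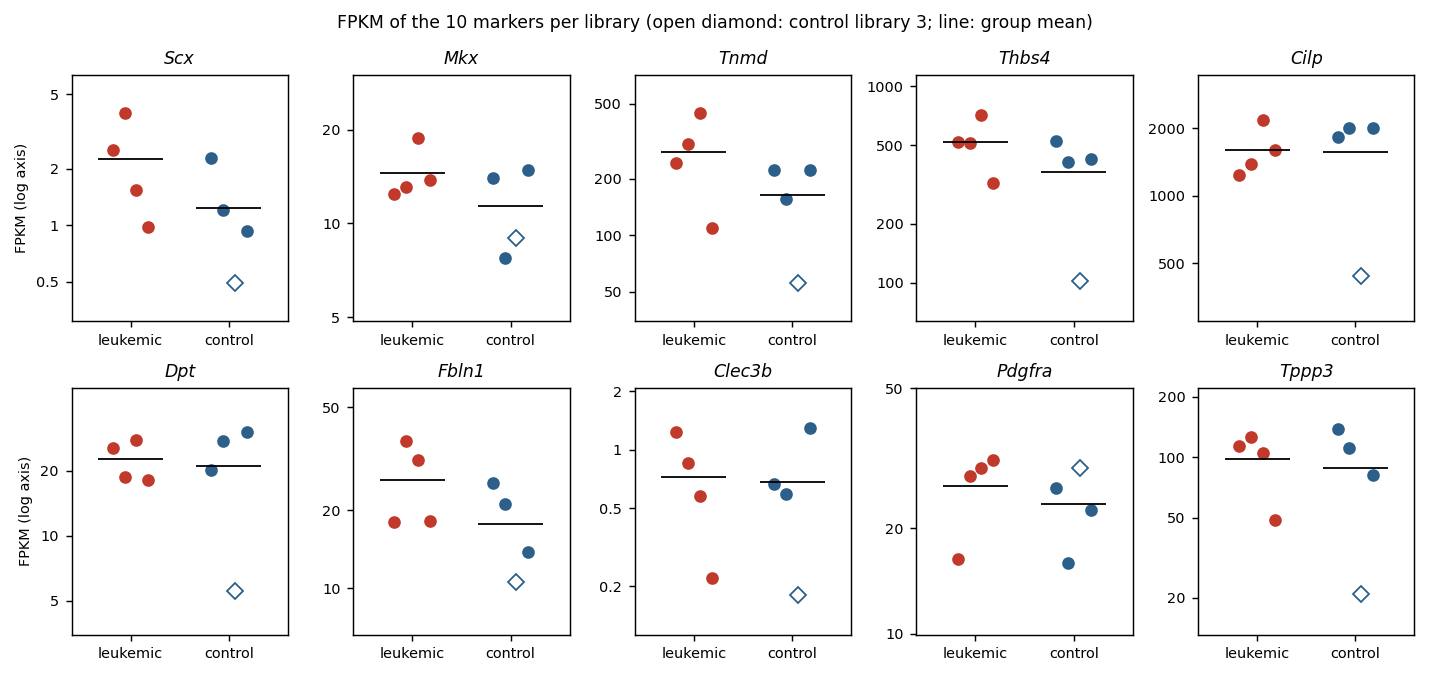
FPKM of each of the 10 markers in 4 leukemic and 4 control libraries, on a log axis. Points are libraries, the open diamond is control library 3 and the line is the group mean. Control library 3 is the lowest of the 8 libraries for 8 of the 10 genes, with Mkx and Pdgfra as the exceptions.

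Among the transcription factors, Scx, which specifies tendon progenitors, was listed at 2.52, 3.97, 1.54 and 0.98 FPKM in leukemic libraries 1 to 4, against 2.29, 1.21, 0.49 and 0.93 FPKM in control libraries 1 to 4. The groups overlapped, with leukemic library 2 the highest and control library 3 the lowest. The difference of leukemic minus control was 0.52 (SE 0.33) in log2(FPKM + 1), a scale that understates the change of low genes. Without leukemic libraries 1 and 2 it was 0.07. Scx lies inside the gene Bop1 on the opposite strand, and the kit does not mark strand. Their annotated exons do not overlap, and Bop1, a ribosome assembly factor, averaged 17.6 ± 3.67 FPKM in leukemic and 23.4 ± 0.473 FPKM in control libraries (SD, n = 4 each).

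Mkx, a homeobox factor that maintains tendon collagen expression, was listed at 12.5, 13.1, 18.8 and 13.8 FPKM in leukemic libraries 1 to 4, against 13.99, 7.75, 8.95 and 14.8 FPKM in control libraries 1 to 4. Control libraries 2 and 3 were low and the other two lay within the leukemic range. The difference was 0.36 (SE 0.24), the smallest standard error of the 9 markers fitted.

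Tnmd, a type II membrane protein needed for tendon maturation, was listed at 243, 304, 447 and 109 FPKM in leukemic libraries 1 to 4, against 224, 156, 55.65 and 221 FPKM in control libraries 1 to 4. Leukemic library 3 was the highest, and leukemic library 4 lay within the control range. The group means were 275.8 ± 140.4 FPKM in leukemic and 164.1 ± 78.8 FPKM in control libraries (SD, n = 4 each), and the difference of 0.76 (SE 0.50) was the largest of the 9. Without control library 3 it was 0.31 (SE 0.42).

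Thbs4, a thrombospondin of tendon and muscle matrix, was listed at 523, 515, 718 and 323 FPKM in leukemic libraries 1 to 4, against 527, 409.8, 101 and 428 FPKM in control libraries 1 to 4. Leukemic library 3 was again the highest and control library 3 the lowest. The difference was 0.68 (SE 0.48) and 0.15 (SE 0.27) without control library 3.

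Among the other matrix genes, Cilp, a matrix protein of cartilage and fibrocartilage, was listed at 1232, 1386, 2172 and 1602 FPKM in leukemic libraries 1 to 4, against 1821.5, 2012, 440.2 and 2002 FPKM in control libraries 1 to 4. Control libraries 1, 2 and 4 lay above 3 of the 4 leukemic libraries, and control library 3 lay below all of the others. The group means were accordingly near each other, at 1598 ± 411 FPKM in leukemic and 1569 ± 757 FPKM in control libraries (SD, n = 4 each). The difference was 0.22 (SE 0.46) and -0.32 (SE 0.24) without control library 3.

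Dpt, dermatopontin, which binds decorin and promotes collagen fibril assembly, was listed at 25.6, 18.7, 27.9 and 18.2 FPKM in leukemic libraries 1 to 4, against 20.3, 27.7, 5.56 and 30.4 FPKM in control libraries 1 to 4. As for Cilp, control library 3 stood alone at the low end, while the leukemic libraries spanned 18.2 to 27.9 FPKM and the remaining control libraries 20.3 to 30.4 FPKM. The difference was 0.30 (SE 0.44) and -0.20 (SE 0.23) without control library 3.

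Fbln1, a fibulin of elastic and basement membrane matrix, was listed at 17.99, 37.1, 31.3 and 18.1 FPKM in leukemic libraries 1 to 4, against 25.6, 21.1, 10.6 and 13.9 FPKM in control libraries 1 to 4. Leukemic libraries 2 and 3 lay above all control libraries and leukemic libraries 1 and 4 within them. The difference was 0.54 (SE 0.32) and 0.33 (SE 0.31) without control library 3.

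Clec3b, tetranectin, a secreted plasminogen-binding protein, was listed at 1.24, 0.86, 0.58 and 0.22 FPKM in leukemic libraries 1 to 4, against 0.67, 0.59, 0.18 and 1.30 FPKM in control libraries 1 to 4. It reached 1 FPKM in 2 libraries, 1 of each group, and was not fitted.

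Pdgfra, a receptor for PDGF chains such as A and C, was listed at 16.4, 28.1, 29.6 and 31.3 FPKM in leukemic libraries 1 to 4, against 25.9, 15.9, 29.5 and 22.5 FPKM in control libraries 1 to 4. It was the marker that varied least, with a 1.97-fold range over the 8 libraries, and here control library 3 was the highest of the controls. The difference was 0.15 (SE 0.25), but -0.01 without control library 2 and 0.36 without leukemic library 1. Exons of Pdgfra overlap those of Gm42802 and Gm42803 on the opposite strand, and exons of Mkx those of AC148004.2 on its own strand, so reads from the shared stretches cannot be told apart.

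Tppp3, a tubulin polymerization promoting protein that marks tendon sheath cells, was listed at 114, 126, 105 and 48.9 FPKM in leukemic libraries 1 to 4, against 138.5, 112, 20.99 and 81.4 FPKM in control libraries 1 to 4. Leukemic library 4 was the lowest leukemic library and control library 3 the lowest of all. The difference was 0.36 (SE 0.53), -0.22 (SE 0.34) without control library 3 and -0.01 without leukemic libraries 1 and 2.

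The log2 differences of all 9 markers fitted were positive, where 46.4% of all genes tested were. Their median was 0.36, where that of all genes was -0.025. In limma, 0 of the 9 had a Benjamini-Hochberg adjusted p under 0.05 (they ran from 0.698 to 0.925), where 0% of all genes did. At an unadjusted p under 0.05 the count was also 0 of 9, where 2.49% of all genes were higher and 4.13% lower. The groups overlapped for each of the 9. Of all genes, 0.954% had every leukemic library above every control library and 2.9% every leukemic library below. In the authors' deposited table the log2 ratio of leukemic over control ran from 0.04 for Cilp to 0.92 for Scx over the 10 markers, with 0.13 for Dpt, 0.20 for Tppp3 and 0.77 for Tnmd. Since the markers were chosen with this contrast known, nothing is read from these counts.

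Without control library 3, 6 of the 9 differences were positive and those of Cilp, Dpt and Tppp3 were negative, where 46.3% of all genes were positive. The median of the 9 was then 0.27, where that of all genes was -0.028. The differences of Scx (0.34), Mkx (0.27), Fbln1 (0.33) and Pdgfra (0.27) stayed positive with those of Tnmd and Thbs4.

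**Figure D2:**
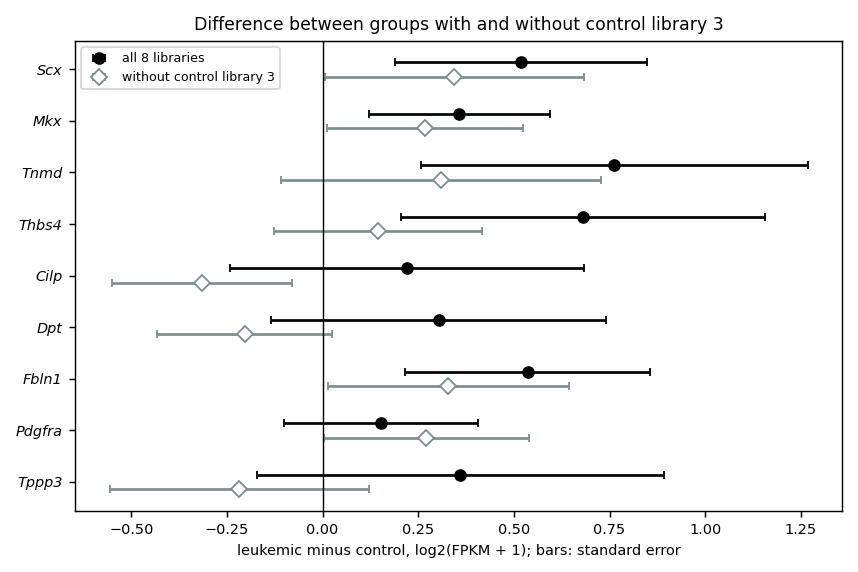
Difference between leukemic and control libraries on the log2(FPKM + 1) scale for the 9 markers fitted, with all 8 libraries (filled circles) and without control library 3 (open diamonds). Bars are standard errors. Cilp, Dpt and Tppp3 lie right of 0 with all libraries and left of 0 without control library 3.

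Control library 3 was the library in which the markers stood furthest from the rest. It was the lowest of the 8 libraries for 7 of the 9 markers fitted, where 13.7% of all genes tested were lowest there. Tppp3 stood at 19.0% of the mean of the other 3 control libraries, Dpt at 21.3%, Thbs4 at 22.3% and Cilp at 22.6%. Tnmd stood at 27.8%, Scx at 33.2%, Fbln1 at 52.4% and Mkx at 73.5%, while Pdgfra stood at 138%. On the log2(FPKM + 1) scale, 0.214% of all genes lay as far below the other control libraries as Tppp3, 0.33% as far as Thbs4 and 0.339% as far as Cilp. Tnmd, Cilp, Thbs4, Dpt and Tppp3 were thus 3.60 to 5.27 times lower there than in the other controls, Scx, Fbln1 and Mkx 1.36 to 3.01 times lower, and Pdgfra was not lower. Thresholding at 50% of the lowest other library placed Tppp3, Cilp, Thbs4 and Dpt inside and Tnmd, at 55.65 against 109 FPKM, just outside, where 2.6% of all genes were inside.

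Among leukemic libraries the markers were lowest in library 4 for 6 of the 10 genes, namely Scx, Tnmd, Thbs4, Dpt, Clec3b and Tppp3, where 30.2% of all genes tested were lowest there among the leukemic libraries. The highest of the 8 libraries was leukemic library 3 for Cilp, Thbs4, Tnmd and Mkx, where 8.34% of all genes were highest there. The median deviation of the 9 markers from their own means on the log2(FPKM + 1) scale was 0.35, 0.38, 0.54 and -0.17 in the 4 leukemic libraries in order, against 0.31, 0.04, -1.67 and 0.12 in the 4 control libraries.

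The genes whose profile over the 8 libraries was nearest to that of Thbs4 by the root mean square difference on the log2(FPKM + 1) scale were Kera, Itgbl1 and Sparcl1, at 0.20, 0.21 and 0.24. Kera, a small leucine-rich proteoglycan of cornea and tendon, was listed at 146, 113, 189 and 84.8 FPKM in leukemic libraries 1 to 4, against 163, 116, 25.3 and 156 FPKM in control libraries 1 to 4. Kera was picked for its likeness to Thbs4, so its high value in leukemic library 3 and low value in control library 3 follow from that choice. Of the other markers, Tnmd (0.29), Tppp3 (0.32), Dpt (0.36) and Cilp (0.39) were near Thbs4, with at most 0.375% of the other genes as close. For Pdgfra (0.95) that share was 72.6%. The markers were chosen with the low level in control library 3 in view, and these distances include that library. Their nearness therefore describes that choice and is no test of a shared program. Tnmd and Cilp were further from each other, at 0.60, with 11.1% of genes as close to Cilp. The genes nearest to Cilp were Camk1d, Creb5 and Medag, at 0.18, 0.18 and 0.19. Itgbl1 and Medag, picked in the same way, had their lowest values in control library 3, at 11.96 and 9.81 FPKM. The other libraries held 59.1 to 119 and 21.9 to 42.9 FPKM.

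The relatives of the markers in the same gene families did not all share their profile. In the thrombospondin family, Comp, a pentameric relative of Thbs4 in cartilage and tendon, stood at 55.1% of the mean of the other control libraries in control library 3, Thbs1 at 48.0%, Thbs2 at 37.7% and Thbs3 at 73.5%, each above the 22.3% of Thbs4. Cilp2 stood at 19.97%, near Cilp. In the fibulin family, Fbln2 stood at 5.77%, whereas Fbln5, an elastic fibre protein, stood at 276%, with 647 FPKM in control library 3 against 135 to 395 FPKM in the other 3 control libraries. Cnmd, the cartilage relative of Tnmd, stood at 118% where Tnmd stood at 27.8%, and Pdgfrb at 136%, near Pdgfra.

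**Figure D3:**
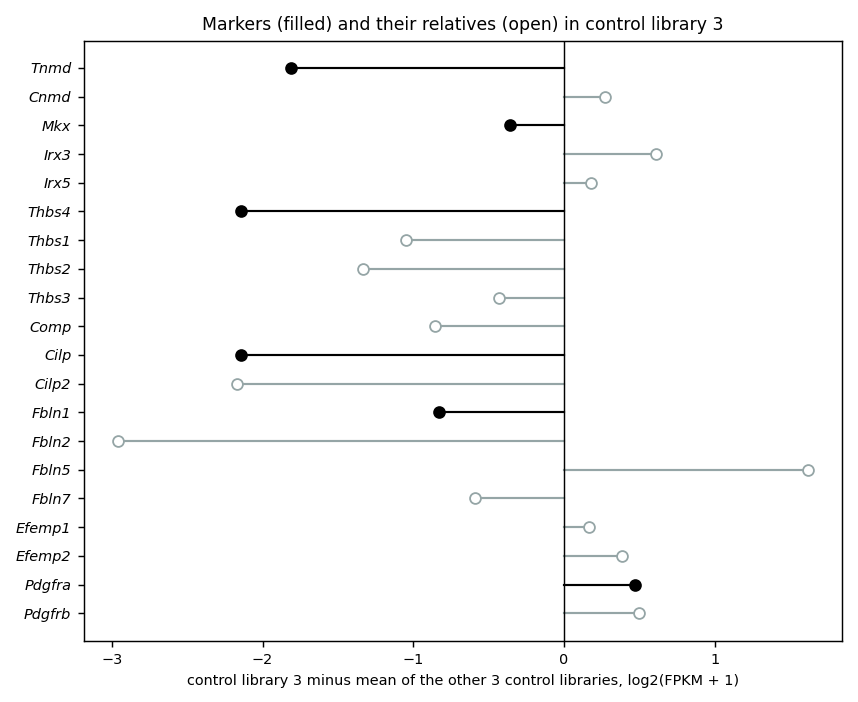
Level in control library 3 minus the mean of the other 3 control libraries, on the log2(FPKM + 1) scale, for 6 markers (filled) and their tested family relatives (open). Fbln2 is the furthest to the left at -2.96 and Fbln5 the furthest to the right at 1.62, and Tnmd (-1.81) and Cnmd (0.27) lie on opposite sides of 0.

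Between the groups, 0 of the 16 relatives tested passed limma with adjustment over all genes, where 0% of all genes did, and 1 was higher and 0 lower at an unadjusted p under 0.05, where 2.49% and 4.13% of all genes were. That gene was Pdgfrb, the PDGF B receptor of mural cells, with 48.2 ± 10.6 FPKM in leukemic and 31.9 ± 10.6 FPKM in control libraries (SD, n = 4 each) and a difference of 0.61 (SE 0.26, limma adjusted p = 0.695). Efemp2, a fibulin needed for elastic fibres, was next, with 153 ± 9.58 FPKM in leukemic and 189.7 ± 32.2 FPKM in control libraries and a difference of -0.29 (SE 0.17). The most abundant relatives were Cnmd (3201 ± 1559 FPKM in leukemic and 2697 ± 578 FPKM in control libraries) and Comp (3147 ± 892 against 2592 ± 711 FPKM). The difference of Comp was 0.28, and 0.06 without control library 3. Comp and Cnmd also stood in the tendon and ligament list, and Pdgfrb in the fibroblast list. The median difference of the 16 relatives was 0.15, and 0.02 without control library 3, where that of all genes was -0.025 and -0.028.

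The ligands of Pdgfra were measured beside it. Pdgfc, an activating ligand, was listed at 7, 8.77, 12.1 and 16.01 FPKM in leukemic libraries 1 to 4, against 16.3, 13.4, 18.1 and 17.9 FPKM in control libraries 1 to 4. Leukemic libraries 1 to 3 lay below all control libraries and leukemic library 4 within them, and the difference was -0.59 (SE 0.24, limma adjusted p = 0.695). Pdgfa, another activating ligand, had a difference of 0.06 (SE 0.33). Pdgfb was not tested, at 0.02 to 0.05 FPKM in leukemic and 0.01 to 0.68 FPKM in control libraries. Pdgfrl, a receptor-like protein, stood at 196 ± 41.0 FPKM in leukemic and 182 ± 64.6 FPKM in control libraries. Of the 6 genes in this list 5 were tested, of which 0 passed after adjustment, and 1 was higher (Pdgfrb) and 1 lower (Pdgfc) at an unadjusted p under 0.05, where 0% of all genes passed and 2.49% were higher and 4.13% lower. Without control library 3 the difference of Pdgfrl was -0.13, against 0.17 with all libraries.

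Of 16 further tendon and ligament genes, all tested, 0 passed limma with adjustment over all genes, and 0 were past an unadjusted p of 0.05 in either direction, where 0% of all genes passed and 2.49% were higher and 4.13% lower. Their median difference was 0.07, and -0.17 without control library 3. Fmod, fibromodulin, a proteoglycan that spaces tendon collagen, stood at 3142 ± 776 FPKM in leukemic and 2687 ± 991 FPKM in control libraries (SD, n = 4 each). The smallest p-values belonged to Col11a1, a fibril collagen of cartilage and developing tendon (337 ± 142 FPKM in leukemic and 495 ± 109.9 FPKM in control libraries), and to Chodl, a membrane lectin (54.4 ± 24.9 against 32.1 ± 18.01 FPKM). Both had a limma adjusted p of 0.695. The difference of Chodl was 0.89, and 0.38 without control library 3, and that of Fmod was 0.29 and -0.05. Control library 3 was the lowest of the 8 libraries for 7 of these 16 genes, where 13.7% of all genes were lowest there.

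Of 30 further fibroblast genes, all tested, 0 passed limma with adjustment, and 1 was higher (Pdgfrb) and 1 lower (Fn1) at an unadjusted p under 0.05, where 0% of all genes passed and 2.49% were higher and 4.13% lower. Their median difference was 0.08, and -0.14 without control library 3. Dcn, decorin, a proteoglycan that binds collagen, stood at 9338 ± 3045 FPKM in leukemic and 9170 ± 3333 FPKM in control libraries (SD, n = 4 each), and Gsn, the actin-severing protein gelsolin, at 2338 ± 506 against 1526 ± 636 FPKM. The difference of Gsn was 0.73, and 0.33 without control library 3, and that of Dcn was 0.07 and -0.25. Fn1, fibronectin, stood at 849.9 ± 254 FPKM in leukemic and 1361 ± 398 FPKM in control libraries, a difference of -0.68 (SE 0.31, limma adjusted p = 0.695). Control library 3 was the lowest of the 8 for 14 of the 30, where 13.7% of all genes were lowest there.

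Markers of other cell types also stood apart in control library 3. The summed level of the 10 markers was 674 FPKM there, against 2763 to 2816 FPKM in the other 3 control libraries, with 2166 to 3552 FPKM in leukemic libraries. The 12 osteoblast genes summed to 92012 FPKM there, against 46715 to 57585 FPKM in the other control libraries and 47384 to 83033 FPKM in leukemic libraries. Most of the gap to the other control libraries came from Spp1, osteopontin, at 60684 FPKM there. Spp1 stood at 19667 to 29530 FPKM in the other control libraries and 19803 to 51897 FPKM in leukemic libraries. The 6 marrow stroma genes, such as Cxcl12 and Lepr, summed to 5168 FPKM there, against 1137 to 4102 FPKM in the other control libraries. In leukemic libraries they summed to 1370 to 3624 FPKM. The 8 cartilage genes, at 8714 against 6625 to 10367 FPKM, lay within the range of the other controls. The 7 Schwann cell genes summed to 213 FPKM there, against 389 to 453 FPKM, and 327 to 437 FPKM in leukemic libraries. Most of the gap to the other control libraries came from Pmp22, at 148 FPKM there, against 328 to 375 FPKM. Control library 3 was the lowest of the 8 libraries for 5 of the 6 Schwann cell genes tested. S100b went the other way, at 117% of the mean of the other control libraries. Of the 6 Schwann cell genes tested between the groups, 0 passed limma after adjustment, where 0% of all genes did. At an unadjusted p under 0.05, 4 were higher and 0 lower, where 2.49% and 4.13% of all genes were. Among them Mbp, myelin basic protein, averaged 32.0 ± 8.58 FPKM in leukemic and 12.7 ± 5.99 FPKM in control libraries (SD, n = 4 each). Its difference was 1.34 (SE 0.33, limma adjusted p = 0.475). Those of S100b and Pmp22 were -0.04 and -0.0003. Sox10, not tested, averaged 0.61 FPKM in leukemic and 0.98 FPKM in control libraries.

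The 7 genes of periosteal and perivascular stroma summed to 424 FPKM in control library 3, against 552 to 658 FPKM in the other control libraries, and to 448 to 980.3 FPKM in leukemic libraries. The 8 skeletal muscle genes summed to 11.6 to 21.5 FPKM in leukemic and 10.8 to 12.7 FPKM in control libraries, with Ckm at 0 to 0.57 FPKM, and the 7 endothelial genes to 1.37 to 7.81 FPKM in leukemic and 2.54 to 6.87 FPKM in control libraries. The endothelial markers Pecam1 and Kdr were listed at 0 to 0.16 and 0 to 0.03 FPKM over the 8 libraries. No gene of these lists was at 0 in every library. In bulk RNA, fewer cells of a type and less RNA per cell cannot be told apart, and the part of these other cells in the marker levels was not tested.

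**Figure D4:**
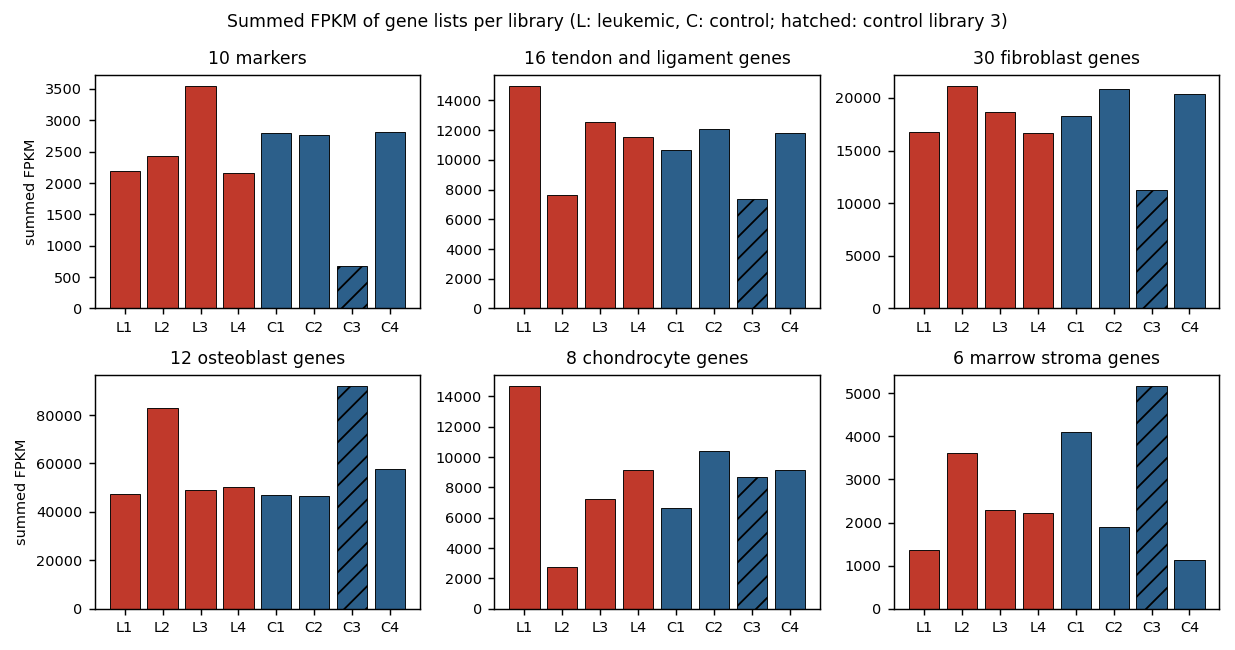
Summed FPKM of the 10 markers and of 5 other gene lists in each library, with bars from 0. Leukemic libraries (L1 to L4) stand left of control libraries (C1 to C4), and control library 3 is hatched. It is the lowest bar for the markers (674 FPKM), the tendon and ligament genes (7341 FPKM) and the fibroblast genes (11254 FPKM). It is the highest for osteoblast (92012 FPKM) and marrow stroma genes (5168 FPKM). Spp1 alone gave 60684 FPKM of that osteoblast bar.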

How the data were processed

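Per the labels' protocols, OBCs were sorted by FACS, RNA had an integrity number above 6.5, and libraries came from the SMART-Seq v4 kit for low input. The submitters' processing notes list RSEM 1.2.8, Bowtie2 2.2.5 and HISAT2 2.0.4, then DESeq2, with GRCm38.p6 as build and no settings. The table that the authors deposited holds FPKM with 2 decimals for each library, mean FPKM of each group and a log2 column of the leukemic to control ratio, named so in its header. The making of this log2 column is not given in the sources used, and the authors' means were not used. RSEM shares fragments of repeated sequence between genes. With the ratios of low values set against leukemic library 1, the fullest bin of 0.03 on the log2 scale held at most 2.34% of genes, so no whole reads were recovered.

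Values were analysed as log2(FPKM + 1) with limma 3.58.1 (R 4.3.3), moderated variances with a trend and no covariates. Tests were two-sided, with p adjusted by Benjamini-Hochberg at 0.05 over every gene that 4 or more libraries held at 1 FPKM or above. The markers, companion lists and tests were chosen with earlier results of these data known. Named companions were, per list, the 2 with the highest mean, the 2 with the smallest p and any past the threshold. Relatives in control library 3, Bop1, Ckm, Pecam1, Kdr, Spp1, Pdgfa, Pdgfb, Mbp, S100b, Pmp22 and Sox10 were named after their values were seen. Profiles were compared with the most abundant tendon gene (Thbs4) and matrix or fibroblast gene (Cilp). Gene neighbours came from GENCODE M21, transcript lengths from its longest transcript (99.3% of genes tested), and start windows from RefSeq.

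Alternatives were pseudocounts of 0.1 and 0.5, no filter and a filter of 5 FPKM, 3 scalings, variances with no trend, weights per library, a replicate block, removal of the trend with transcript length (lowess, span 0.3), and leaving out each library or leukemic libraries 1 and 2.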

Additional observations from a re-analysis of the deposited data

Results flagged for a closer look

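Cilp in the control libraries was the result with a library far from its group. Control library 3, at 440.2 FPKM, was separated from the next control library by 0.879 of the range of the 4 control libraries, above Dixon's critical value for groups of 4. Of the 20 groups examined (10 genes in 2 groups) this was 1, and chance gives about 1 in 20. The markers were chosen with the low level in control library 3 in view, so this value describes that choice and is no test of it.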

How the results depend on the processing

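Under the 20 alternatives, 0 of the markers passed the adjusted threshold. Over all genes, 0 were lower in every alternative, and the count of genes higher at an adjusted p under 0.05 was 1 without the filter, 2 with totals rescaled to TPM, 3 with quantile normalization, 6 with array weights and 2 with the length trend removed. It ran from 0 to 2 when each library was left out, with the 2 (Ccl19 and LOC100043921) found without leukemic library 4. The cause was not tested. Rescaling to TPM shifted the median difference of all genes to -0.15. The differences of Scx, Tnmd, Mkx, Thbs4 and Fbln1 were positive in every alternative (Scx could not be fitted with the filter of 5 FPKM), with ranges of 0.07 to 0.83, 0.31 to 1.15, 0.21 to 0.51, 0.15 to 0.93 and 0.33 to 0.73. Those of Cilp and Dpt turned negative without control library 3 alone, that of Tppp3 there and without leukemic libraries 1 and 2, and that of Pdgfra without control library 2 (-0.01). The median differences of the tendon and ligament, fibroblast, relatives and PDGF lists kept their sign in 15, 17, 18 and 14 of the 20 alternatives. That of the relatives was -0.05 with quantile normalization, and that of the PDGF list ran from -0.21 to 0.26. The labels do not say whether the replicate numbers pair the libraries. Same-numbered deviations correlated at 0.12, -0.05, -0.07 and 0.22, and so few values cannot settle it. With the number as a block the marker differences were the same, as a balanced design forces. In limma with that block, 633 genes were higher and 405 lower at an unadjusted p under 0.05, where 279 and 463 were without it. Unknown depth sets the limit for Clec3b and Scx.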

Other observations

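Of all genes tested, 292 were at most 50% of the lowest other library in control library 3. The most abundant were Clu, Gsn, Cilp, Msmp and Prg4, named after their values were seen. Prg4, lubricin, the lubricant of joint surfaces and tendon sheaths, was listed at 254 FPKM in control library 3, against 1017, 2332 and 1516 FPKM in control libraries 1, 2 and 4, with 989 to 1234 FPKM in leukemic libraries. Clu, the secreted chaperone clusterin, was listed at 1617 FPKM there, against 4610 to 5807 FPKM in the other control libraries and 3687 to 5450 FPKM in leukemic libraries. Msmp was listed at 17.2 FPKM there, against 648 to 1704 FPKM, and at 262 to 2874 FPKM in leukemic libraries. Mmp3, a matrix metalloproteinase of connective tissue, was listed at 21.8 FPKM there, against 262 to 348 FPKM, and at 149.5 to 224 FPKM in leukemic libraries.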
